A study of Mus musculus with 14 samples.

Results

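The genes described here are 9 regulators and early markers of cartilage and bone formation, chosen by name among the 23284 gene symbols counted in each library. They are Sox9, Sox5 and Sox6, Runx2, Runx3 and Trps1, Pkdcc and Pth1r, and Acan. All 9 have a row of read counts in every one of the 14 libraries. Of them, 7 reached 1 CPM (reads scaled to a fixed library size) in at least 3 libraries and entered the tests across genes, and Runx3 and Acan did not.

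The limb skeleton is laid down as cartilage, which forms from condensations of limb bud mesenchyme and is later replaced by bone. The transcription factor SOX9 is required for mesenchymal cells to become chondrocytes and acts with SOX5 and SOX6 on cartilage matrix genes, among them Acan, which encodes the proteoglycan aggrecan. RUNX2 is required for osteoblast differentiation and, with RUNX3, for chondrocyte maturation, the GATA-type repressor TRPS1 acts in growth plate cartilage, the secreted kinase encoded by Pkdcc is needed for normal growth of long bones, and Pth1r encodes the receptor through which PTHrP delays chondrocyte maturation. BMP ligands act upstream of cartilage formation in the limb bud, and SMAD4 is the shared partner of the SMAD proteins that carry BMP and TGFβ signals into the nucleus.

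RNA-seq was done on mouse forelimb buds (strain given as NMRI), with both buds of 1 embryo making 1 library. The control embryos, Smad4+/+ PrxCreT/+ and called wild type (WT) here, carried the Cre transgene too, and the mutants were Smad4Δ/Δc PrxCreT/+, with 1 constitutive null allele and 1 allele deleted by Cre. The labels describe the mothers as Smad4flox/flox, a cross that cannot give Smad4+/+ embryos. The study's methods instead give Smad4flox/+ mothers, with Smad4+/+ littermates that carry the Cre transgene as controls. Labels and methods thus differ on the mothers but give the same control genotype, which is used here. The transgene acts in limb bud mesenchyme, so that ectoderm and other cells of the mutant buds keep the second allele. There were 3 WT and 4 mutant libraries at E10.0 (30 somites), and 3 WT and 4 mutant libraries at E10.5 (35 somites).

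Between 34066930 and 61691258 reads were counted on genes per library. Smad4 had 6959 to 9253 reads in the WT libraries and 1092 to 2656 in the mutant ones. The ribosomal RNA precursor Rn45s took 0.151% to 0.478% of the reads in 10 libraries and 1.72% to 8.05% in mutant replicates 4 and 5 of both stages, so results were also computed without these 4 libraries. Limb bud mesenchyme markers were expressed in all libraries, with the summed level of 8 of them (Prrx1, Prrx2, Tbx5, Twist1, Lhx2, Msx1, Hand2 and Hoxd13) between 987 and 1479 CPM.

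Per kilobase of annotated exon, Pkdcc was the most abundant of the 9 transcripts in all 4 groups, and Runx3 and Acan were the least abundant. In WT buds at E10.0, Pkdcc stood at 102 ± 5.60 CPM per kb (SD, n = 3), Pth1r at 16.4 ± 0.468, Sox9 at 11.9 ± 2.70 and Trps1 at 9.02 ± 0.525. The SoxD genes followed, with Sox6 at 2.53 ± 0.106 CPM per kb and Sox5 at 1.91 ± 0.299. Runx2 had 0.717 ± 0.0810 CPM per kb, Acan 0.0433 ± 0.0228 and Runx3 0.0366 ± 0.0146. The ranges of neighbours in this order overlapped for Sox9 and Trps1 and for Acan and Runx3, and were apart for all other neighbours.

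This order differed in the other groups. Sox9 stood second in the mutants at E10.0 and in both genotypes at the later stage, at 12.1 ± 2.13, 17.2 ± 0.409 and 21.1 ± 0.647 CPM per kb, and its range overlapped that of Pth1r in mutant buds at E10.0 and in WT buds at E10.5. In mutant buds at E10.5, Trps1 (13.4 ± 1.01 CPM per kb, n = 4) stood above Pth1r (10.3 ± 0.937), and their ranges were apart. Sox5 stood above Sox6 in both groups at E10.5, with 2.43 ± 0.181 against 1.89 ± 0.344 CPM per kb in WT buds. In WT buds at E10.5, Runx2 came up to 1.51 ± 0.114 CPM per kb, within the range of Sox6.

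**Figure D1:**
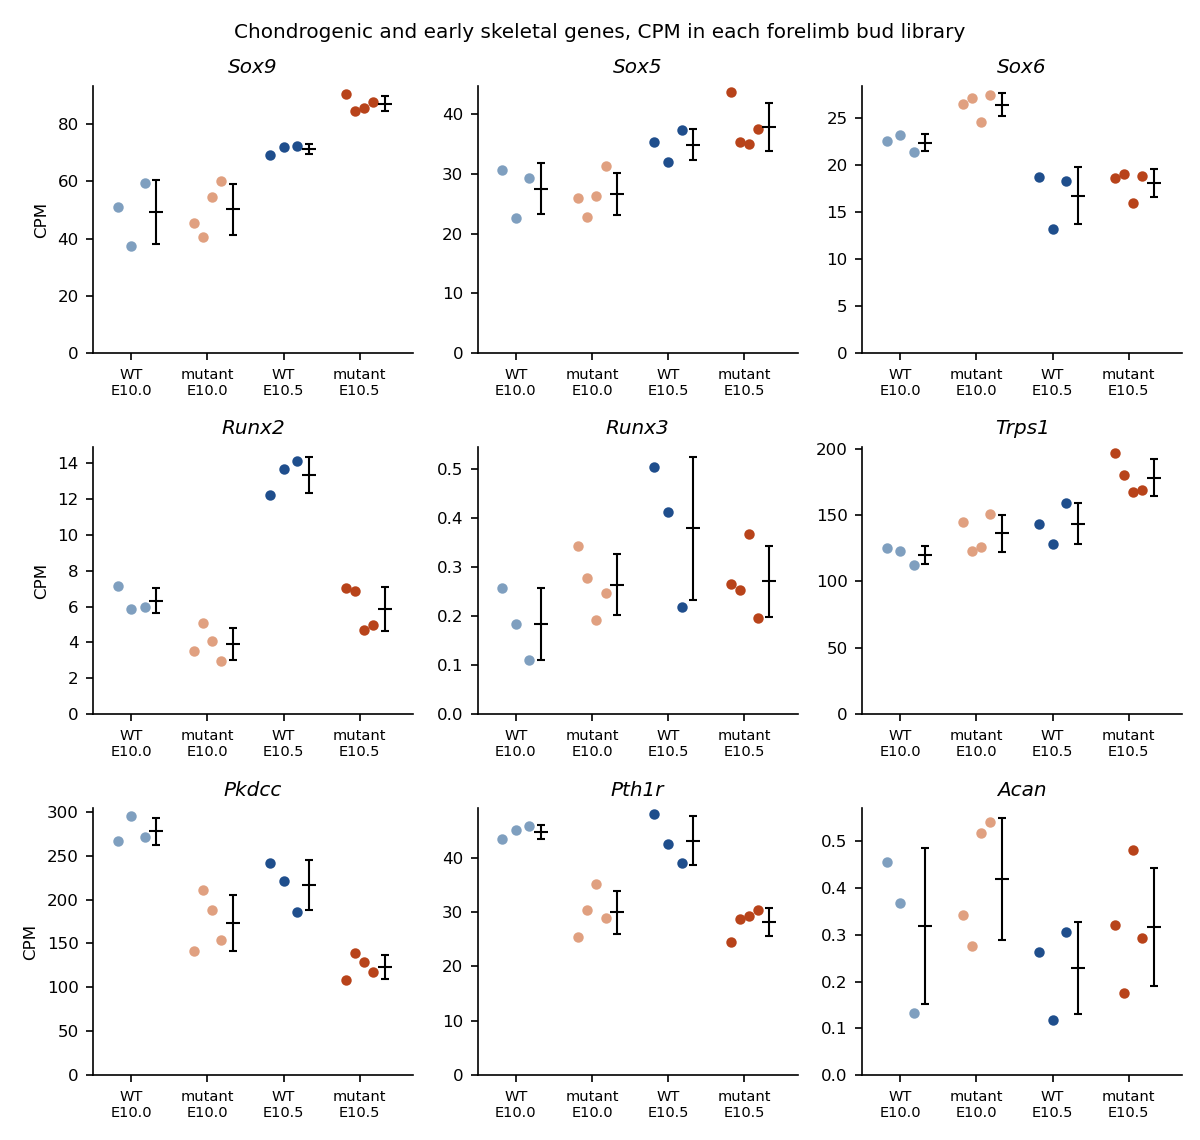
CPM of the 9 genes in each library (points; y axes from 0, scaled to each gene), with the mean and SD of each group of 3 WT or 4 mutant libraries in black. The mutant points of Runx2, Pkdcc and Pth1r lie below the WT points of the same stage in both stages, and Runx3 and Acan stay under 1 CPM.

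In the first comparison, mutant and WT buds of the same stage were set side by side, to see which of these genes depend on mesenchymal Smad4. A gene was called where edgeR's exact test gave an adjusted p (Benjamini-Hochberg, over the 12393 genes tested) of 0.1 or less and the levels differed by 1.2-fold or more. Runx2, Pkdcc and Pth1r were lower in mutant buds at both stages, Trps1 was higher at E10.5, and no other gene of the 9 was called between genotypes. Of the 7 tested, 3 were lower and 0 higher at E10.0, against 3.28% of all genes tested called lower and 3.33% called higher. At E10.5, 3 were lower and 1 was higher, against 1.54% and 2.19% of all genes tested. The genes were chosen with earlier results of these data known, so these shares are no test of the set. The 7 had a median log2 fold change of -0.05 at E10.0 and of 0.12 at E10.5, and that of all genes tested was -0.02 and -0.01.

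Pkdcc, the most abundant of the set, had 267, 295 and 271 CPM in the 3 WT libraries at E10.0 and 141, 211, 188 and 154 CPM in the 4 mutant ones. At E10.5, it had 242, 221 and 186 CPM in WT and 108, 139, 129 and 117 CPM in mutant buds. All mutant values lay below all WT values of the same stage. The log2 fold change was -0.68 ± 0.14 (SE) at E10.0 (adjusted p = 1.40e-05, edgeR exact test) and -0.81 ± 0.14 at E10.5 (adjusted p = 3.21e-08). The gene lies at chr17:83614623-83624410 on the plus strand (mm9), and no exon of it overlaps another annotated gene.

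Pth1r, the receptor gene, had 43.4, 45.2 and 45.8 CPM in WT buds at E10.0 and 25.5, 30.3, 35.1 and 28.9 CPM in mutant buds. At E10.5, the WT values were 48.0, 42.5 and 39.0 CPM and the mutant values 24.5, 28.8, 29.3 and 30.3 CPM. Again the groups did not overlap at either stage. The log2 fold change was -0.58 ± 0.10 (SE) at E10.0 (adjusted p = 3.69e-05, edgeR exact test) and -0.61 ± 0.11 at E10.5 (adjusted p = 9.02e-06). The gene lies at chr9:110624592-110649649 on the minus strand (mm9).

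Runx2 was expressed at a far lower level. It had 7.16, 5.86 and 5.98 CPM in WT buds at E10.0 and 3.54, 5.08, 4.07 and 2.97 CPM in mutant buds, from 121 to 392 reads per library. At E10.5, it had 12.2, 13.7 and 14.1 CPM in WT and 7.02, 6.86, 4.67 and 4.98 CPM in mutant buds, from 153 to 700 reads. The groups did not overlap at either stage, and the WT level was 1.61-fold the mutant level at E10.0 and 2.25-fold at E10.5. The log2 fold change was -0.69 ± 0.18 (SE) at E10.0 (adjusted p = 0.00940, edgeR exact test) and -1.17 ± 0.16 at E10.5 (adjusted p = 2.08e-08).

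At E10.5 the mutant libraries with the most Rn45s, replicates 4 and 5, had the lowest Runx2. Without the 4 libraries high in Rn45s, Runx2 was still lower in mutant buds, by a log2 fold change of -0.54 at E10.0 (adjusted p = 0.0354, edgeR exact test) and -0.93 at E10.5 (adjusted p = 4.04e-05). Pkdcc (-0.64 and -0.80) and Pth1r (-0.67 and -0.68) were also called without them at both stages. Runx2 lies at chr17:44632936-44951746 on the minus strand (mm9), and 5.87% of its exon bases overlap Gm10497 on the other strand. The libraries do not record strand, so reads from that stretch cannot be assigned to either gene.

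Since Pkdcc, Pth1r and Runx2 were lower together, the sequence around their transcription starts is shown, with 250 bases before and 50 after the start, 5′ to 3′ on the strand of the gene. The sequences are RefSeq's for GRCm38.p6, a later build than that of the read counts, and 7 of the 9 genes have an entry there (Sox9 and Trps1 have none). For Pth1r, with 3 annotated starts, the one farthest upstream is shown. The starts lie within chr17:83215033-83215332 for Pkdcc (plus strand), chr17:44814578-44814877 for Runx2 (minus strand) and chr9:110747096-110747395 for Pth1r (minus strand). Capitals mark matches to 4 short motifs, searched on both strands with overlaps allowed. SMAD proteins are known to bind GGCGCC, and also the motif CAGAC, while RUNX proteins bind ACCACA and proteins of the SOX family bind ACAAAG.
Pkdcc: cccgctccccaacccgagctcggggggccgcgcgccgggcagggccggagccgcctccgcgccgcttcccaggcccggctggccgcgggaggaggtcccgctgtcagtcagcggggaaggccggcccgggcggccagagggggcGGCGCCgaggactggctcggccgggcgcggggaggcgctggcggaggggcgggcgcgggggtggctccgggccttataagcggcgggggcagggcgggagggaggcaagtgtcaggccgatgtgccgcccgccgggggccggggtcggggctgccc
Runx2: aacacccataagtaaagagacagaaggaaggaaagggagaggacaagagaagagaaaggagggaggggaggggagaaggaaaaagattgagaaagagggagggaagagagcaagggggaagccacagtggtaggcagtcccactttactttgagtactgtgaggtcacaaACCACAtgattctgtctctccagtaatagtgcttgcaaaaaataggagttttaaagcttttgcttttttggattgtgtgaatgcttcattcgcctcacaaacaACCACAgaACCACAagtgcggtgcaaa
Pth1r: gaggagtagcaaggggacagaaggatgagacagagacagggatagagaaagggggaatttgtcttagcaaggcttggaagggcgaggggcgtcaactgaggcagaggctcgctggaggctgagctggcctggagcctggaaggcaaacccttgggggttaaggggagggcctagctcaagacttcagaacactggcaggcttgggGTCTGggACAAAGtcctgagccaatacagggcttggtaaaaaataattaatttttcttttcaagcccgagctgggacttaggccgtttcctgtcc

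The Pkdcc window holds 1 match to GGCGCC, which 11.9% of the 32851 promoter windows in the table hold, and 82.7% of its bases are G or C, against a median of 52.7% over all windows. The Pth1r window holds 1 match to CAGAC, as 49.6% of all windows do, and 1 to ACAAAG, as 18.7% do. The other Pth1r starts have 1 and 2 matches to CAGAC. The Runx2 window holds 3 matches to ACCACA, and 16.8% of all windows hold at least 1. It holds 0 matches to GGCGCC and 0 to CAGAC. The other genes with an entry also hold CAGAC, with 1 match for Sox5, 0 to 2 over the starts of Sox6, and 2 and 1 at the starts of Runx3. Acan has 0. GGCGCC has 0 matches in all of these other windows, and ACCACA has 2 at the first Runx3 start. These are matches of letters only, and no binding was measured in these libraries. The study measured SMAD4 binding in limb buds separately, by ChIP-seq, and names Pkdcc and Pth1r (written Pthr1) among the SMAD4 target genes. For Pkdcc it reports a SMAD4-bound element with enhancer activity in anterior limb bud mesenchyme.

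Trps1 was the only one of the 7 called higher in mutant buds, and at E10.5 only. Its levels were 143, 128 and 159 CPM in WT buds and 197, 180, 167 and 169 CPM in mutant buds at that stage, without overlap, for a log2 fold change of 0.32 ± 0.10 (SE; adjusted p = 0.0539, edgeR exact test). The call rests on the test and on single libraries. The adjusted p was 0.113 with edgeR's quasi-likelihood test, and 0.185, 0.493 and 0.168 with the exact test without WT replicate 1, WT replicate 2 and mutant replicate 1 of E10.5. At E10.0, Trps1 had 125, 123 and 112 CPM in WT and 145, 123, 126 and 151 CPM in mutant buds, which overlap (log2 fold change 0.18 ± 0.09, adjusted p = 0.330). That the change was seen at E10.5 and not at E10.0 is not itself a difference between stages, as the test of that difference gave an adjusted p of 0.957 (edgeR quasi-likelihood test). The gene lies at chr15:50486307-50721587 on the minus strand (mm9).

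Sox9 was not called between genotypes at either stage. At E10.0, the WT libraries had 51.1, 37.4 and 59.5 CPM and the mutant libraries 45.6, 40.5, 54.6 and 60.1 CPM, with overlapping ranges and a log2 fold change of 0.02 ± 0.24 (SE). At E10.5, WT buds had 69.3, 72.1 and 72.3 CPM and mutant buds 90.7, 84.6, 85.7 and 87.9 CPM. Every mutant value was above every WT value there, with a log2 fold change of 0.29 ± 0.03, and the adjusted p was 0.387 (edgeR exact test). When the libraries of E10.5 were fitted without those of E10.0, the adjusted p was 0.0107. The cause of this shift was not tested. The CV of Sox9 was 22.7% in WT and 17.5% in mutant buds at E10.0, against 2.37% and 3.07% at the later stage. The gene lies at chr11:112643538-112649074 on the plus strand (mm9).

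The SoxD partners were not called between genotypes either. Sox6 had 22.5, 23.2 and 21.4 CPM in WT and 26.5, 27.1, 24.6 and 27.4 CPM in mutant buds at E10.0, where the ranges were apart (log2 fold change 0.24 ± 0.05 SE, adjusted p = 0.263, edgeR exact test). At E10.5 the values were 18.7, 13.2 and 18.3 CPM against 18.6, 19.0, 15.9 and 18.8 CPM, and overlapped. Sox5 had 30.6, 22.6 and 29.4 CPM in WT and 26.0, 22.8, 26.3 and 31.4 CPM in mutant buds at E10.0, and 35.3, 32.1 and 37.3 against 43.7, 35.3, 35.1 and 37.6 CPM at E10.5. Its log2 fold changes were -0.05 ± 0.17 and 0.12 ± 0.10. Sox5 lies at chr6:143776945-144730497 and Sox6 at chr7:122614858-123182258, both on the minus strand (mm9), and 9.25% of the exon bases of Sox5 overlap 4933415D12Rik on the other strand.

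**Figure D2:**
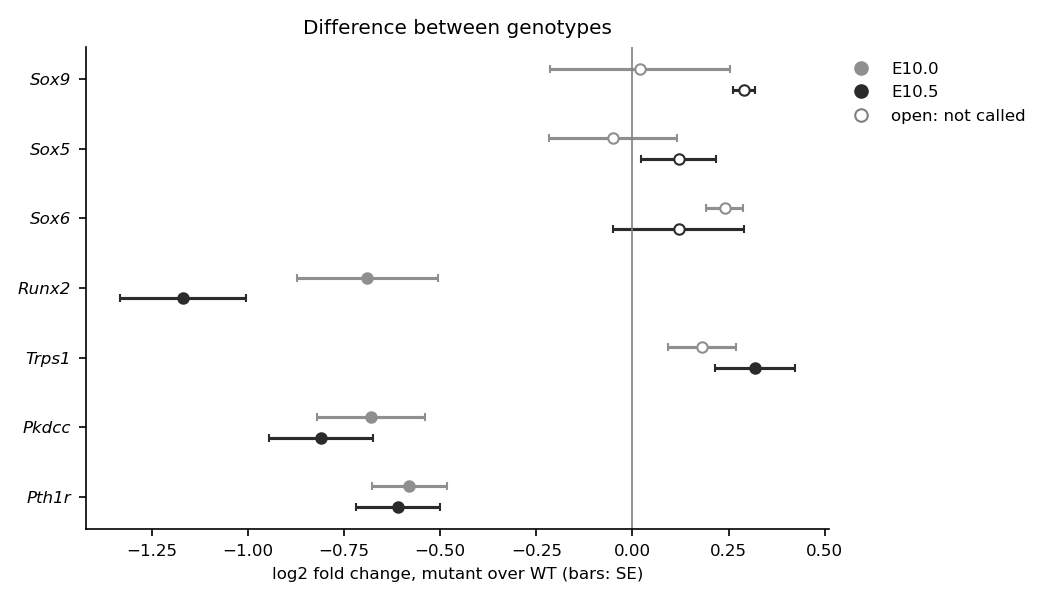
Log2 fold change of mutant over WT buds for the 7 genes tested (x axis; points with SE bars, grey for E10.0 and black for E10.5, open where not called). Runx2, Pkdcc and Pth1r lie between -1.17 and -0.58 at both stages, and Trps1 is called at 0.32 at E10.5 only.

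Runx3 and Acan were close to the detection limit. Runx3 had 5 to 21 reads and Acan 6 to 25 reads per library, which gives group means of 0.183 to 0.378 CPM for Runx3 and 0.229 to 0.419 CPM for Acan. Neither passed in exact two-sided permutation tests of CPM between genotypes or stages, with 8 tests and adjusted p-values from 0.522 to 0.857. The smallest p that 4 libraries against 4 allow is 0.0286, and 3 against 3 cannot go below 0.1. As the p of the smaller tail is doubled, 3 against 4 cannot reach 0.05 either. The genotype comparisons and the stage comparison in WT buds could therefore not have reached 0.05. With so few reads and libraries, these tests do not show that the levels were alike. Runx3 lies at chr4:134676567-134733905 and Acan at chr7:86198369-86259985, both on the plus strand (mm9).

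The second comparison was between stages, within each genotype. In WT buds, Runx2 and Sox9 were higher at E10.5 than at E10.0, and Sox6 and Pkdcc were lower. Of the 7 genes tested, 2 rose and 2 fell, against 5.39% and 4.74% of all genes tested. In mutant buds, Sox9, Sox5, Trps1 and Runx2 were higher at E10.5, and Sox6 and Pkdcc were lower, so that 4 rose and 2 fell against 10.8% and 8.40% of all genes tested. Pth1r was not called in either genotype. The WT and mutant stage comparisons share no libraries with each other, but each shares libraries with the genotype comparisons above.

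Runx2 had the largest change between stages in WT buds among the 7, from 6.33 ± 0.715 to 13.3 ± 1.01 CPM (SD, n = 3 each), a log2 fold change of 1.07 ± 0.11 (SE; adjusted p = 3.70e-06, edgeR exact test). In mutant buds it went from 3.92 ± 0.898 to 5.88 ± 1.23 CPM (n = 4 each), a log2 fold change of 0.59 ± 0.22 (adjusted p = 0.00702), and the ranges of the stages overlapped. The mean of Runx2 in mutant buds at E10.5 lay below its mean in WT buds at E10.0, but the ranges overlapped. Only mutant replicates 4 and 5 (4.67 and 4.98 CPM), which are high in Rn45s, lay below that WT mean. Replicates 1 and 2 (7.02 and 6.86 CPM) lay above it.

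Sox9 rose from 49.3 ± 11.2 to 71.2 ± 1.69 CPM in WT buds (log2 fold change 0.53 ± 0.20 SE, adjusted p = 0.00657, edgeR exact test) and from 50.2 ± 8.81 to 87.2 ± 2.67 CPM in mutant buds (0.80 ± 0.13, adjusted p = 1.19e-08). All values at E10.5 were above all values at E10.0 in both genotypes. Without WT replicate 2 of E10.0, which had the lowest Sox9 of all libraries, the WT change was 0.36 with an adjusted p of 0.154. Sox5 rose in mutant buds from 26.6 ± 3.55 to 37.9 ± 4.02 CPM (0.51 ± 0.12, adjusted p = 0.000248). In WT buds Sox5 went from 27.5 ± 4.30 to 34.9 ± 2.60 CPM and just missed the call (0.34 ± 0.15, adjusted p = 0.103), which 11 of the 23 alternative settings made.

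Sox6 moved the other way. It fell from 22.4 ± 0.940 to 16.7 ± 3.04 CPM in WT buds (log2 fold change -0.42 ± 0.16 SE, adjusted p = 0.0191, edgeR exact test) and from 26.4 ± 1.22 to 18.1 ± 1.44 CPM in mutant buds (-0.54 ± 0.07, adjusted p = 2.00e-05). In WT buds the call was lost without replicate 2 of E10.0 (-0.39, adjusted p = 0.143) and without replicate 2 of E10.5 (-0.27, adjusted p = 0.224). Sox13, the third SoxD gene, also fell in both genotypes, by 0.72 and 0.64 on the log2 scale.

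Pkdcc fell between the stages from 277 ± 15.2 to 216 ± 28.3 CPM in WT buds (log2 fold change -0.36 ± 0.12 SE, adjusted p = 0.0842, edgeR exact test) and from 173 ± 32.0 to 123 ± 13.3 CPM in mutant buds (-0.49 ± 0.15, adjusted p = 0.000453). The WT call was lost with the quasi-likelihood test (adjusted p = 0.139), with the replicate block added to it (0.102), with no filter on low counts (0.119), and without any of the 3 WT libraries of E10.0 or WT replicates 2 and 3 of E10.5, where the adjusted p was between 0.113 and 0.514. Trps1 rose in mutant buds from 136 ± 13.9 to 178 ± 13.5 CPM (0.39 ± 0.09, adjusted p = 0.000434). In WT buds its log2 fold change was 0.25 ± 0.10 (adjusted p = 0.132). Pth1r was not called, with changes of -0.05 ± 0.09 in WT and -0.09 ± 0.12 in mutant buds.

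**Figure D3:**
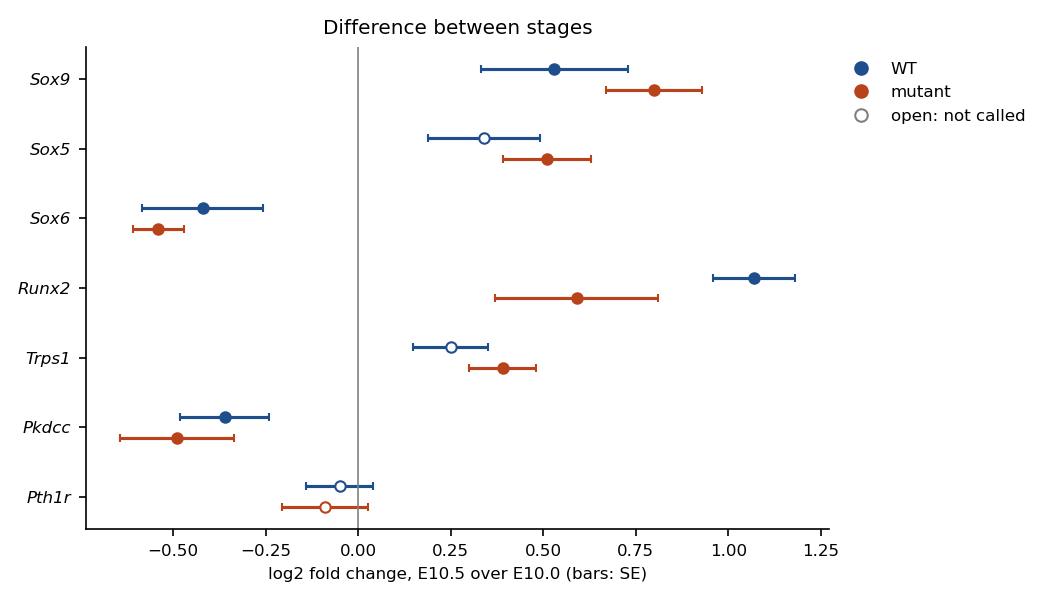
Log2 fold change of E10.5 over E10.0 for the 7 genes tested (x axis; points with SE bars, blue for WT and red for mutant buds, open where not called). Sox9 and Runx2 lie above 0 and Sox6 and Pkdcc below 0, called in both genotypes, and Pth1r lies at -0.05 and -0.09.

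Whether the effect of the genotype differed between the stages was tested with an interaction term in edgeR's quasi-likelihood test. None of the 7 genes passed, with 0 at an unadjusted p under 0.05 and 0 with DESeq2, and 0.186% of all genes tested were called. The largest difference was that of Runx2, at -0.48 ± 0.25 on the log2 scale (SE; adjusted p = 0.929), followed by Sox9 at 0.27 ± 0.24 (adjusted p = 0.950). For Pth1r the difference was -0.03 ± 0.15.

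The genes also varied together among the 14 libraries, which is given as a description because the points share library, stage and genotype. Over all libraries, Pearson's r of log2 CPM was 0.938 between Sox9 and Sox5, 0.893 between Pkdcc and Pth1r, -0.870 between Trps1 and Pkdcc and -0.718 between Sox9 and Sox6. After the mean of each group was removed, r was 0.806 for Sox9 and Sox5, 0.730 for Pkdcc and Pth1r, -0.674 for Trps1 and Pkdcc and -0.178 for Sox9 and Sox6. At E10.0, Sox9 and Sox5 were lowest in the same library of each genotype, WT replicate 2 (37.4 and 22.6 CPM) and mutant replicate 3 (40.5 and 22.8 CPM), and at E10.5 in different libraries. Among all genes tested, those with the profile most like that of Pkdcc over the 14 libraries were Id3 (r = 0.978), Cldn10 (0.972) and Pi4k2a (0.959). Those most like Pth1r were Prrx2 (0.977), Smad7 (0.960) and Kctd15 (0.957), those most like Runx2 were Mpped2 (0.944), Lhfp (0.939) and Fam176a (0.934), and those most like Trps1 were Fam171b (0.974), Palm2 (0.962) and Setbp1 (0.959).

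**Figure D4:**
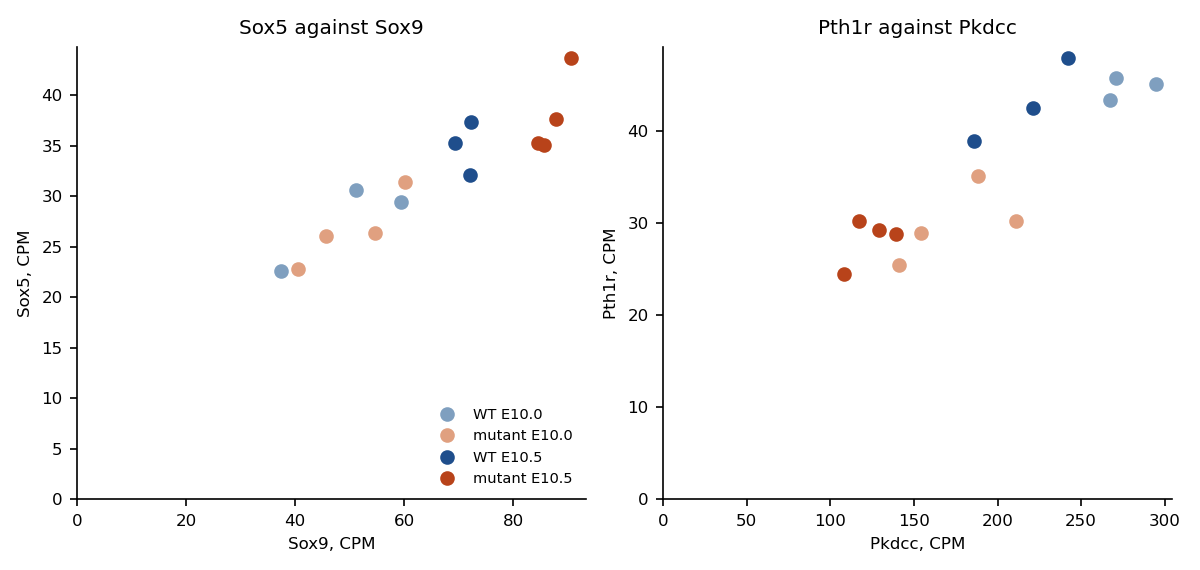
Sox5 against Sox9 (left) and Pth1r against Pkdcc (right), in CPM, with 1 point per library coloured by group (both axes from 0). Sox5 is high where Sox9 is high (r = 0.938 over 14 libraries), and the mutant libraries have at most 35.1 CPM of Pth1r and lie under all WT libraries.

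Related genes were looked up in lists that were set by name. Counts called in these lists stand against 3.33% of all genes tested called higher and 3.28% lower in mutant buds at E10.0. At E10.5 these shares were 2.19% and 1.54%. Among the SoxE and SoxD relatives, Sox8, a SoxE gene like Sox9, was higher in mutant buds at both stages. It had 8.58, 12.0 and 11.5 CPM in WT and 17.8, 16.4, 19.5 and 22.9 CPM in mutant buds at E10.0 (log2 fold change 0.84, adjusted p = 1.66e-05, edgeR exact test), and means of 8.26 ± 0.425 and 15.9 ± 2.56 CPM at E10.5 (0.94, adjusted p = 7.87e-07). Of the 5 tested members of the RUNX family and its partners, 0 were called at E10.0, and Cbfa2t3 (0.68) and Runx1t1 (0.46), both transcriptional corepressors, were higher in mutant buds at E10.5. Cbfb, the shared partner subunit of the RUNX proteins, had log2 fold changes of -0.07 and -0.21 and was not called.

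Of 18 cartilage matrix genes listed, 9 passed the filter and 9 were too low to be tested. Among those tested, 1 was lower in mutant buds at E10.0 (Col9a1, log2 fold change -0.49, adjusted p = 0.0586) and 1 at E10.5 (Hapln1, the link protein, -0.43, adjusted p = 0.0638; edgeR exact test). Neither was called with the quasi-likelihood test. Col2a1, the main collagen of cartilage, had 109 ± 9.96 CPM in WT and 92.2 ± 17.7 CPM in mutant buds at E10.0, and 100 ± 8.43 and 105 ± 17.4 CPM at E10.5. Without the 4 libraries high in Rn45s, Col2a1 was called lower in mutant buds at E10.0, as was Col9a1. At E10.5, 0 of the 8 cartilage matrix genes then tested were called, so that the call of Hapln1 was lost. Between the stages, 2 of the 9 rose and 0 fell in WT buds (median log2 fold change -0.04), and 3 rose and 1 fell in mutant buds (0.18). Of all genes tested, 5.39% rose and 4.74% fell in WT buds, and 10.8% and 8.40% in mutant buds. Col9a1 rose in both genotypes, by 0.84 in WT and 1.28 in mutant buds on the log2 scale, and Hapln1 fell in mutant buds, by 0.67. Between genotypes, the 9 had a median log2 fold change of -0.24 at E10.0 and of 0.06 at E10.5, against -0.02 and -0.01 over all genes tested.

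The ligands of the Pth1r pathway were scarcely detected. Pthlh, which encodes PTHrP, had 0 to 15 reads per library and Ihh 1 to 8 reads. Of the 10 genes listed for this axis, 5 passed the filter, and 0 were called between genotypes or stages. Gnas, which encodes the stimulatory G protein that the receptor couples to, had means of 1230 to 1425 CPM over the 4 groups.

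Because bulk buds were sequenced, fewer cells of a type and less RNA per cell cannot be told apart. Of the 8 limb bud mesenchyme markers, 5 were lower in mutant buds at E10.0 and 4 at E10.5, among them Prrx2 (log2 fold change -1.01 and -0.83) and Lhx2 (-0.47 and -0.54), and Hoxd13 was higher at both stages (0.43 and 0.48). Their summed level was 1230 to 1407 CPM in WT and 987 to 1160 CPM in mutant buds at E10.0, and 1434 to 1479 against 1145 to 1257 CPM at E10.5. Prrx1, the gene whose promoter drives the Cre, had log2 fold changes of -0.29 and -0.32. The study counts Prrx2 and Lhx2 among the SMAD4 target genes with lower expression in mutant buds, so they do not stand for the amount of mesenchyme alone. It also states, citing earlier work, that mutant buds of these stages show neither mesenchymal cell death nor an altered shape. The part of the mesenchyme markers in the differences of Runx2, Pkdcc and Pth1r was not tested.

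Markers of tissue next to the bud also moved with the groups. Of 9 sclerotome and somite markers, 5 passed the filter. Their summed level was 90.6 to 115 CPM in WT and 109 to 138 CPM in mutant buds at E10.0, and 157 to 195 and 206 to 235 CPM at E10.5, with Nkx3-2 at 0 reads in all libraries of E10.0. In mutant buds at E10.5, Tbx18 (120 to 141 CPM) and Meox2 (60.1 to 67.5 CPM) made up most of this sum. Pax9, Uncx and Nkx3-2 stayed under 1 CPM in all libraries, so that the sum says little about them. Sox9 is also expressed in sclerotome. Among these markers Pax1 was lower in mutant buds at both stages (-2.87 and -2.61), and Tbx18 (0.53) and Meox2 (0.51) were higher at E10.5. The summed level of 4 mesothelium and body wall markers was 6.40 to 9.66 CPM in WT and 12.9 to 24.1 CPM in mutant buds at E10.0, and 9.14 to 11.6 against 4.92 to 7.74 CPM at E10.5. Of these 4, Krt19 made up most of the sum in WT buds, with a mean of 6.39 CPM at E10.0, and was not called between genotypes. Upk3b and Wt1 were higher in mutant buds at E10.0 (log2 fold change 3.35 and 2.38) and lower at E10.5 (-1.76 and -1.42). Both calls at E10.5 were lost without the libraries high in Rn45s. Of 6 neural crest markers, 1 passed the filter, and their sum was 11.1 to 16.3 CPM over all libraries. The part of these tissues in the levels of Sox9, Sox5 and Trps1 was not tested.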

How the data were processed

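RNA-seq was analysed in 14 samples, which the labels divide by genotype (WT or Smad4Δ/Δc) and by stage (E10.0 or E10.5). The authors sequenced polyA libraries (single reads of 50 cycles), aligned them to mm9 with TopHat2 (version 2.0.13), kept unique reads and counted them per gene symbol with HTSeq without regard to strand. The values they deposited are raw counts, and reads shared by overlapping genes or near-identical copies were left out by that counting. No other column was used.

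From these counts, 1041 symbols of chromosomes X, Y and M were removed. Testing was then limited to the 12393 genes that reached 1 CPM in 3 or more samples. Rows that name no gene (6.18% to 9.86% of reads on no feature, 1.49% to 1.75% ambiguous) were left out of library sizes. CPM values use TMM library sizes. As in the study's methods, groups were compared by the exact test of edgeR (version 4.0.16) with tagwise dispersion and a prior of 10 degrees of freedom. The dispersion was fitted over all 14 samples, a choice made here, and a gene was called at an adjusted p up to 0.1 if the fold change reached 1.2. The interaction was tested with edgeR's quasi-likelihood test. Each log2 fold change has an SE from the variance of log2(CPM + 0.1) among replicates. The scripts were tested on simulated data. Depth was 34066930 to 61691258 reads on genes, and no pair of samples within a group agreed within sampling noise (chi-square over degrees of freedom of 12.2 or more).

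The alternatives were the quasi-likelihood test, DESeq2 (version 1.42.0), its size factors, no filter, stages or genotypes fitted apart, a replicate block, X, Y and M kept, Rn45s left out, the libraries high in Rn45s left out, and each library left out in turn. Samples of the same replicate number varied together only in the stage comparison of the mutants. There the deviations of replicates 1, 4 and 5 from their group means correlated at 0.507, 0.558 and 0.222. Mutant replicates 4 and 5 are also the libraries high in Rn45s at both stages. For these, a pairing by number cannot be told apart from that shared trait. Nothing in the labels says that a number marks a litter or day.

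Named genes were the 9 members, Smad4, up to 3 genes of each list called between genotypes (those of largest change), and the 3 genes with the highest correlation with each member called between genotypes. Cbfb, Col2a1, Gnas, Ihh, Prrx1, Pthlh, Sox13, Sp7 and the stage changes of Col9a1 and Hapln1 fall outside this rule and were named for their role after their values were seen. The members and the lists were chosen with earlier results of these data known. Promoter sequences are RefSeq's (GRCm38.p6), and positions of genes are from the NCBIM37 (mm9) annotation.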

Additional observations from a re-analysis of the deposited data

Results flagged for a closer look

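In mutant buds at E10.5, Sox6 in replicate 4 (15.9 CPM) lay far below the other 3 libraries, which were between 18.6 and 19.0 CPM. Its distance to the nearest of them was 0.871 of the range of the group, past Dixon's critical value for 4 samples. This was the only such case among the 18 groups of 4 mutant libraries examined for the 9 genes, and chance gives about 1 in 20. Replicate 4 is among the libraries high in Rn45s. Without those 4 libraries, Sox6 still fell between the stages in mutant buds (log2 fold change -0.50, adjusted p = 0.00829, edgeR exact test). Whether Rn45s plays a part in the low Sox6 value was not tested.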

How the results depend on the processing

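Over the 7 genes tested and the 5 comparisons, 748 of 791 values from 23 alternative settings kept their direction and their side of the threshold. The calls of Runx2, Pkdcc and Pth1r between genotypes held under all 23 settings at both stages. Reversals were of small changes that were not called. For Sox9 at E10.0 the log2 fold change between genotypes was -0.10 with the replicate block and -0.18 without the libraries high in Rn45s, and -0.14 to 0.19 with 1 library left out. With 1 library left out, it was -0.17 to 0.03 for Sox5 at E10.0, -0.02 to 0.21 for Sox6 at E10.5, -0.13 to 0.02 for Pth1r between stages in WT buds and -0.11 to 0.05 for the interaction of Pth1r. The count of genes called between stages in WT buds was 1 to 5 with 1 library left out, against 4. It was 1, Runx2 alone, without WT replicate 2 of E10.0. The causes of these shifts were not tested. In the fit of the mutants with the replicate block, 6 of the 7 genes were called between stages, as without it. In the other comparisons the numbers did not pair the samples, and the block gave 3 calls at E10.0, 3 at E10.5 (without Trps1, 0.33, adjusted p = 0.150) and 4 between stages in WT buds, where Pkdcc (-0.35, adjusted p = 0.102) was lost and Sox5 (0.35, adjusted p = 0.0584) was gained. Over all genes, calls between genotypes at E10.0 numbered 819, against 1961 with the block, 2018 without the libraries high in Rn45s and 254 without WT replicate 3 of E10.0. Those in WT buds between stages numbered 1256, against 484 without WT replicate 2 of E10.0 and 1932 with the genotypes fitted apart. Interaction calls numbered 23, against 87 with DESeq2. Depth limits Runx3 and Acan, with at most 21 and 25 reads per library.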

Other observations

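Other genes of early skeletal tissue showed few differences between genotypes. Of 10 genes of mesenchymal condensation, all passed the filter. At E10.0, Vcan, which encodes the proteoglycan versican, was 273 ± 78.2 CPM in WT and 460 ± 44.0 CPM in mutant buds (SD; log2 fold change 0.76, adjusted p = 0.00597, edgeR exact test), and Tnc, which encodes tenascin C, was 6.61 ± 5.47 and 21.2 ± 10.1 CPM with overlapping ranges (1.68, adjusted p = 0.0314). At E10.5, Thbs1, which encodes thrombospondin 1, was higher in mutant buds (0.49, adjusted p = 0.000803). Of the 14 osteoblast genes listed, 9 passed the filter and 0 were called between genotypes. Sp7, an osteoblast transcription factor that acts downstream of Runx2, had 1.79 ± 0.0767 CPM in WT and 1.32 ± 0.0320 CPM in mutant buds at E10.5 (adjusted p = 0.451). Between the stages in mutant buds, 2 of the 9 rose and 3 fell, against 10.8% and 8.40% of all genes tested.

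Of 14 tested genes of chondrogenic transcription, 1 was lower in mutant buds at E10.0, the joint gene Gdf5 (0.745 ± 0.303 against 0.311 ± 0.121 CPM, adjusted p = 0.0134, edgeR exact test), and 1 at E10.5, Hoxa2 (log2 fold change -0.41, adjusted p = 0.0985). Hoxa2 was not called with the quasi-likelihood test (adjusted p = 0.111) or without the libraries high in Rn45s. Of the secreted kinases related to Pkdcc, 5 were tested and 0 were called between genotypes. Of 4 lecticans and link proteins tested, Vcan was higher at E10.0 and Hapln1 lower at E10.5.

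Markers of other cell types gave these counts between genotypes. Muscle precursor markers Myog and Myf5 were higher in mutant buds at E10.0 (log2 fold change 4.14 and 1.26), and Myog was lower at E10.5 (-2.85). At E10.0, Myog had 0.102 to 0.274 CPM in WT and 2.16 to 5.62 CPM in mutant buds. The genotype effect on Myog differed between the stages (adjusted p = 0.0149, interaction in edgeR's quasi-likelihood test). Of the ectoderm markers, Krt5 was lower at E10.0 (-0.40) and 0 of 8 were called at E10.5. Of the endothelial markers, Esam was lower at E10.0 (-0.28), and of the macrophage markers Ptprc was higher (0.94). Isl1 was the only neuronal marker called (1.32 at E10.0), Erbb3 the only neural crest marker (-0.42 at E10.5), and 0 of 4 erythroid markers were called. With the quasi-likelihood test, Krt5 (adjusted p = 0.107) and Isl1 (adjusted p = 0.112) were not called. The calls of Esam and Erbb3 were lost without the libraries high in Rn45s.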
